A study of Homo sapiens with 2 samples.

Results

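The genes described here are 36 genes of the DNA damage response and of DNA repair, a list put together by function: kinases that answer to DNA damage, the BRCA proteins, mediators of recombination, Fanconi anemia genes, mismatch repair, end joining and RecQ helicases. They are 36 of the 20136 protein-coding genes in the annotation used for comparison. A gene counted as having a peak when at least 1 row of the mERG peak list named it, and a gene with no such row counted as no peak detected. Chromatin came from VCaP, an established line of prostate cancer cells in which the TMPRSS2-ERG fusion drives the ETS transcription factor ERG, and it was precipitated with an antibody made against an ERG peptide mono-methylated at lysine 362 (mERG). Peaks rest on 1 library from the mERG ChIP and 1 from a control, and the control is labelled both as input and as IgG. There was no replicate, so no difference between genes can be set against a replicate error, and the sequencing depth is unknown from the peak list. The list gives 18070 peaks on hg19 with a score of the authors for each, from 33.01 to 592.19 with a median of 40.9; the scale of the score is not given in the sources used here, and it was used only to compare peaks within the list.

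Cells answer to broken or blocked DNA with kinases that halt the cell cycle and call repair proteins to the damage. Breaks are then repaired by homologous recombination, which copies an intact sister DNA with the help of the BRCA proteins, or by end joining, while the Fanconi anemia proteins deal with crosslinks and mismatch repair corrects replication errors. Inherited or acquired loss of several of these genes, among them BRCA2 and ATM, is known from advanced prostate cancer, and ERG itself binds DNA at sites with a GGAA core.

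The sequence at the centre of the strongest peak is shown for FANCI, MRE11A, FANCC, XRCC5 and ATM, which are 5 of the 7 repair genes with the highest scores at a peak that names the gene, because ERG is known for GGAA sites. Each run is 201 bases of the hg19 plus strand, and capitals mark GGAA or its complement TTCC. The FANCI window, chr15:89801217-89801417, lies in intron 2 of 37 and holds 3 such cores. The MRE11A window, chr11:94211590-94211790, lies in intron 6 of 18 and holds 1. The FANCC window, chr9:97996198-97996398, lies in intron 4 of 14 and holds 6. The XRCC5 window, chr2:216992286-216992486, is centred in exon 8 of 21 and holds 0. The ATM window, chr11:108196748-108196948, is centred in exon 47 of 63 and holds 2.
FANCI: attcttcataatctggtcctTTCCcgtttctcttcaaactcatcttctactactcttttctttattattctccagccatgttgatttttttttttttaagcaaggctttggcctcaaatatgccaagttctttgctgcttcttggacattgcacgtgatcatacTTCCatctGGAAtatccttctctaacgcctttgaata
MRE11A: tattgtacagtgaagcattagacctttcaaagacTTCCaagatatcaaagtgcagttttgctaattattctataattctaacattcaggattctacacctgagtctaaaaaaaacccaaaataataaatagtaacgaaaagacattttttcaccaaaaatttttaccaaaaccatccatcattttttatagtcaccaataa
FANCC: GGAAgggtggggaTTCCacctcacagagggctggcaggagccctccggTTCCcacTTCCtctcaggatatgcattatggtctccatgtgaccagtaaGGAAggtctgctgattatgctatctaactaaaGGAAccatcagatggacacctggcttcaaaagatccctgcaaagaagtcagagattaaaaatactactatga
XRCC5: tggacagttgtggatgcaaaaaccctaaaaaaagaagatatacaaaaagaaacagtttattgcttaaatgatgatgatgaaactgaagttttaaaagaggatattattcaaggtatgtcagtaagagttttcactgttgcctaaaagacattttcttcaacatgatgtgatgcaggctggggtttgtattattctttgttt
ATM: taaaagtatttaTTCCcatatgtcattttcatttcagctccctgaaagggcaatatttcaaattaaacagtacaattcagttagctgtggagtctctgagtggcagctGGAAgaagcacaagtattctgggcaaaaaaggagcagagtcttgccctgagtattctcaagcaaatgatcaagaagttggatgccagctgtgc

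These 5 windows ran from 0 to 6 cores, as did the windows at all 64 peaks that named a repair gene, with a median of 2. GGAA on either strand lay within 100 bp of the centre at 54 of 64 peaks (84.4%, Wilson 95% interval 73.6 to 91.3%) and in 99 of 128 windows 2000 bp away (77.3%, 69.4 to 83.7%), so the intervals overlapped. Peaks of all other named genes gave 83.8% (83.3 to 84.3%) at the centre and 79.6% (79.2 to 80.0%) in the windows 2000 bp away, so over the list GGAA was somewhat more frequent at the centres. The longer ETS core CCGGAAGT, sought on both strands and allowing 1 mismatch beside the GGAA, was in 2 of the 64 centre windows (3.13%, 0.861 to 10.7%) and in 2.62% of those of other named genes. In the windows 2000 bp away it was in 6 of 128 (4.69%, 2.17 to 9.85%) and in 2.98%, so it was no more frequent at the centres. None of the 5 printed windows held it. Median GC content at the centre was 36.8% for the repair genes and 38.3% for other named genes. All intervals given here cover counting error only, and peaks of 1 gene share their source.

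Of the 36 repair genes, 17 were named by at least 1 mERG peak (47.2%, Wilson 95% interval 32.0 to 63.0%), against 20.3% of all protein-coding genes and 4077 of the 20100 protein-coding genes outside the list (20.3%, 19.7 to 20.8%). The genes with a peak were ATM, ATR, PRKDC, CHEK1, MRE11A, TP53BP1, BRCA1, BRCA2, BRIP1, BARD1, RAD51B, RAD52, RAD54B, FANCC, FANCI, BLM and XRCC5. Counting peak centres inside the gene body instead, whatever gene the row named, gave 21 of 36 (58.3%, 42.2 to 72.9%) against 19.6% of all protein-coding genes. The 4 genes added in this way were RAD50, RAD21, FANCD2 and MSH3. No peak of either kind was listed for the other 15, which were PALB2, RAD51C, RAD51D, CHEK2, FANCA, FANCL, FANCM, MSH6, PMS2, PARP1, XRCC4, LIG4, POLQ, WRN and RIF1. Peak identifiers in the list run to 18276, above its 18070 peaks, so whether called peaks are missing from it was not settled, and no peak means none in this list. With peaks of a score of at least 50 alone, 9 repair genes were named (25%) against 7.60% of other protein-coding genes. Within 10 kb of a transcription start site (TSS) the shares lay closer together, at 4 of 36 repair genes (11.1%) and 8.90% of other genes; the 4 were ATM, ATR, RAD52 and RAD54B.

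**Figure D1:**
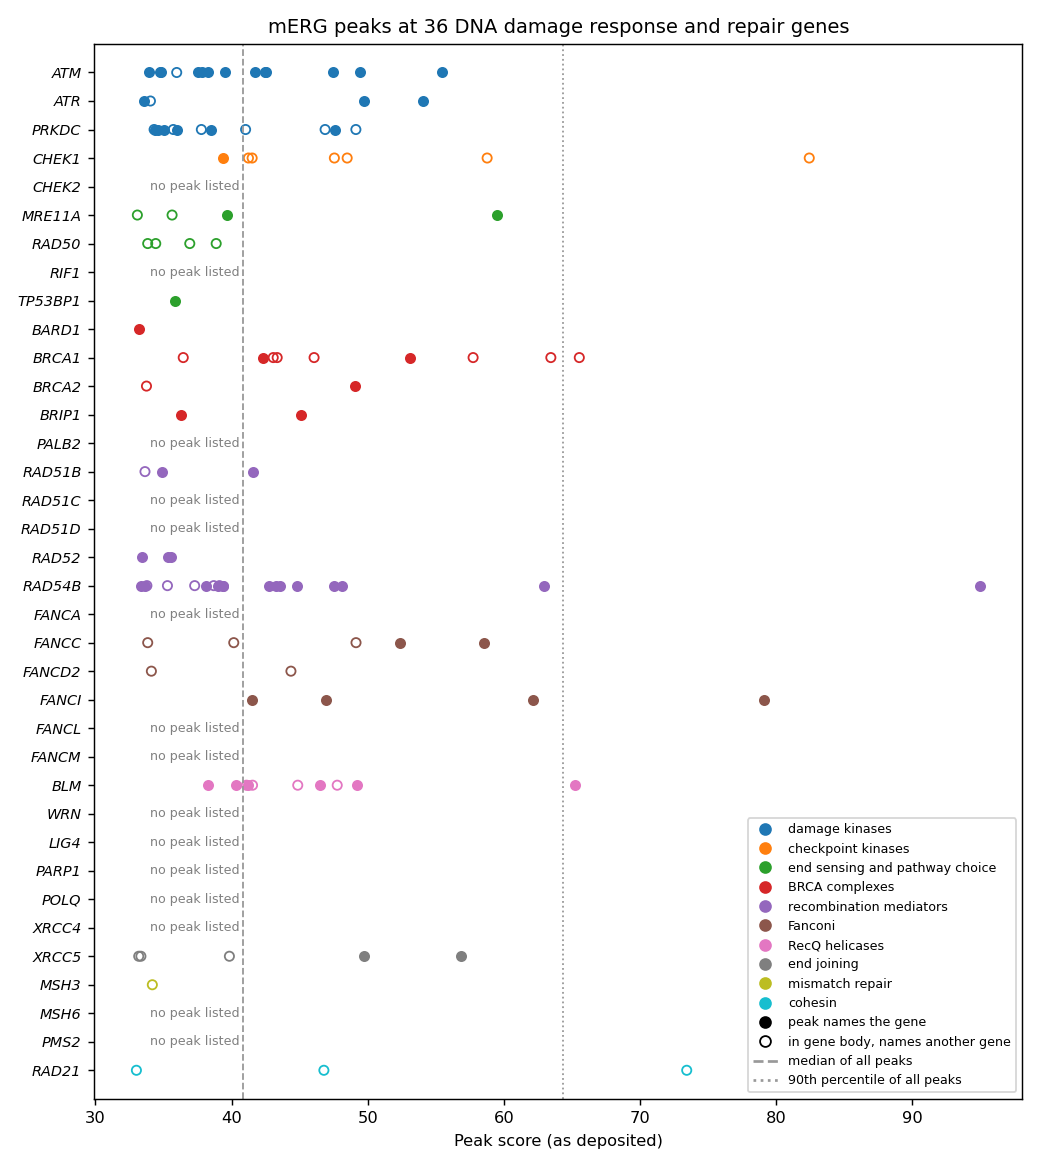
Score of each peak (x axis, as deposited) at the 36 repair genes (y axis), coloured by role; filled points are peaks that name the gene, open points lie in its body but name another gene, and the lines mark the median (40.9) and the 90th percentile (64.33) of all peaks. RAD54B reaches the highest score, 94.99, and 15 genes have no point.

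Repair genes are long, and the share of genes with a peak rose with length over the whole annotation. Median length was 90.3 kb for the 36 genes and 27.1 kb for other protein-coding genes. Among all protein-coding genes the share named by a peak was 4.42% in the shortest length decile, 33.96% in the eighth, 38.5% in the ninth and 34.8% in the longest. The repair genes were named at 5 of 10 in the eighth decile, 7 of 11 in the ninth and 4 of 6 in the longest, while 0 of 4 in the sixth and 1 of 4 in the seventh had a peak. Averaged over the deciles in which the 36 genes lie, the share of all genes was 32.8% for named peaks, just inside the interval of the repair genes, and 36.2% for body peaks, below the interval of the repair genes. How much of the difference in share goes with length was not tested.

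Peaks were also uneven along the genome, and the repair genes with a peak lay in regions with more of them. Within 2.5 Mb on either side and outside the gene body, the 17 genes with a peak had a median of 10.2 peaks per Mb, with XRCC5 lowest at 1.4 and RAD52 highest at 27.0. The 19 without had a median of 4.0 peaks per Mb, from 0 at FANCA to 37 at RAD51D, so the groups overlapped. Protein-coding genes as a whole gave 7.6 peaks per Mb with a peak and 4.2 without. By chromosome, all 3 repair genes on chromosome 11 (ATM, CHEK1, MRE11A) and all 3 on chromosome 15 (BLM, FANCI, TP53BP1) were named, where 18.7% and 34.2% of protein-coding genes were. PALB2 and FANCA lie on chromosome 16, where 2.56% of genes were named, and neither had a peak. On chromosome 5 none of the 3 repair genes (RAD50, MSH3, XRCC4) was named, where 24.5% of genes were, and on chromosome 3 ATR alone of 3 was, where 29.8% were. Averaged over the chromosomes of the 36 genes the share was 23.4%, and the part of local peak density in the results was not tested.

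All 3 damage kinases had peaks. ATM, which is switched on by double-strand breaks, was named by 12 peaks, and 2 more in its body were named for C11orf65. The scores of the 12 ran from 33.93 to 55.44 with a median of 40.6, which is close to the median of the whole list. They were spread along the gene, from 6.80 kb to 108.4 kb from the TSS, with 11 in introns between intron 4 and intron 50 of 62. The strongest ATM peak, chr11:108196693-108197003 on hg19, was the only one in an exon, exon 47 of 63. PRKDC, the catalytic subunit of the DNA-dependent protein kinase of end joining, was named by 6 peaks, all in introns, with scores up to 47.56 at chr8:48850305-48850834 in intron 11 of 84. Another 6 peaks in the last part of PRKDC were named for CEBPD and reached 49.13. ATR, the kinase of stalled replication forks, was named by 3 peaks and scored highest, at 54.04, in its first intron, 2.70 kb from the TSS. A further ATR peak, with a score of 49.69, lay in exon 8 of 47.

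Of the checkpoint kinases that ATR and ATM activate, CHEK1 had peaks and CHEK2 had none. CHEK1 was named by 1 peak with a score of 39.36, but its body held 7 peak centres over 51.1 kb. The other 6 were named for ACRV1, a neighbour that overlaps its annotated end, and reached 82.43. With 13.7 peaks per 100 kb of annotated body, CHEK1 was the most densely covered repair gene after RAD54B with 16.5. The 6 peaks named for ACRV1 lay from 63.6% of that length on, so the CHEK1 value depends on where the gene is taken to end.

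Among the genes of end sensing and pathway choice, MRE11A carried the strongest peak. MRE11A, the nuclease of the complex that senses broken ends, appears in the list under its current symbol MRE11 and was named by 2 peaks. The stronger, chr11:94211450-94211931, had a score of 59.47 and lay in intron 6 of 18, 15.4 kb from the TSS. RAD50, which binds MRE11A in that complex, had 4 peaks in its introns, all named for IL13, with scores of 33.84 to 38.87. TP53BP1, which steers breaks toward end joining, was named by 1 peak with a score of 35.87 in intron 14 of 27. RIF1, which works with TP53BP1, had none.

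The BRCA genes had few named peaks of moderate score. BRCA1, which acts early in homologous recombination, was named by 2 intronic peaks with scores of 53.08 and 42.29, 42.3 kb and 33.9 kb from the TSS. The annotated body of BRCA1 held 9 peak centres, of which 5 were named for RND2, with scores up to 65.54, 1 for NBR2 and 1 for LOC101929767. BRCA2, which acts at the resected break in homologous recombination, was named by 1 peak with a score of 49.09 in exon 9 of 27. BRIP1, a helicase that binds BRCA1, was named by 2 peaks in introns 5 and 6 of 19, with scores of 45.08 and 36.31. BARD1, the partner of BRCA1 in its ubiquitin ligase, was named by 1 peak with a score of 33.18, near the lowest score of the list. PALB2, which links BRCA1 to BRCA2, had no peak.

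RAD54B, a DNA motor protein of homologous recombination, had the most peaks and the highest score of the 36 genes. It was named by 14 peaks, and its body of 103.2 kb held 17 peak centres, 5 of them named for FSBP, a gene that overlaps RAD54B. The strongest peak, chr8:95405674-95406573 on hg19, was 900 bp wide, lay in intron 6 of 12 and had a score of 94.99, above 97.4% of all peaks in the list. The remaining RAD54B scores ran from 33.36 to 62.92, and the peak at 62.92 was upstream of the gene, inside an intron of a neighbour 38.8 kb from the TSS. RAD52, which anneals complementary strands, was named by 3 peaks of low score, 33.39 to 35.57, and 2 of them lay about 71 kb away in introns of another gene. RAD51B, the longest of the 36 genes at 910.4 kb, was named by 2 peaks with scores of 41.61 and 34.87, both in intron 7 of 10 and 389.9 kb and 143.6 kb from the TSS. Its paralogs RAD51C and RAD51D had no peak.

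**Figure D2:**
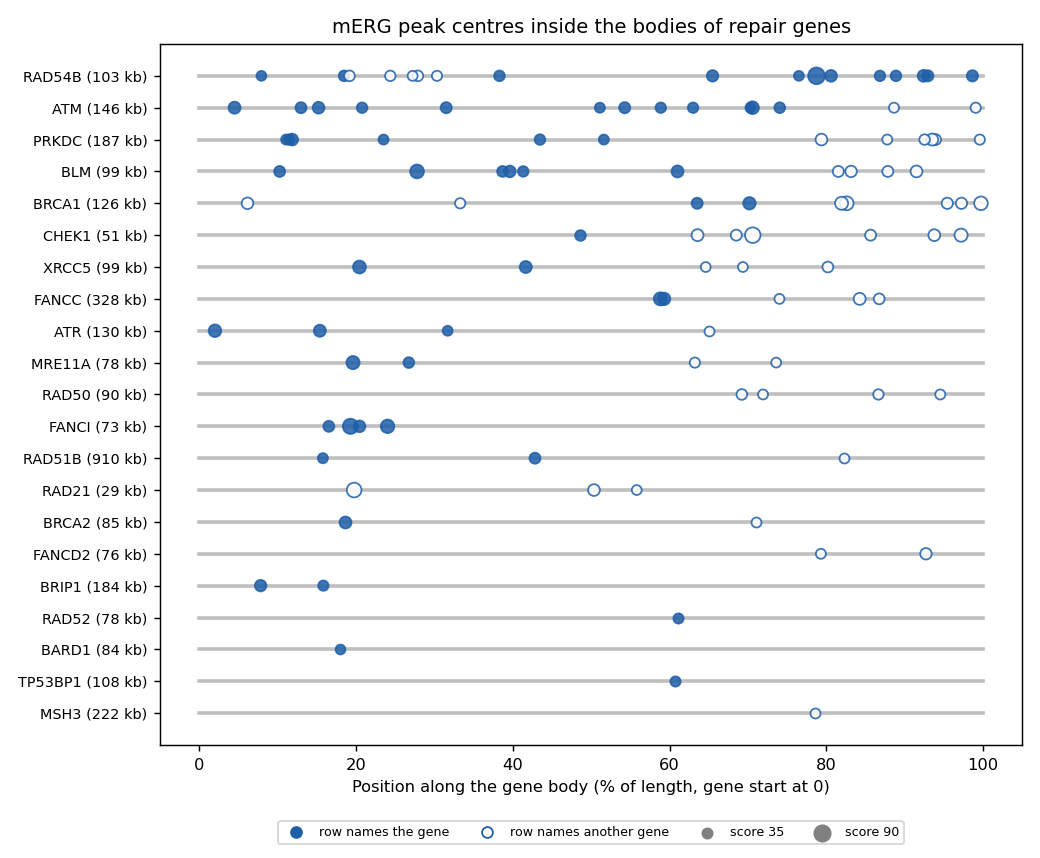
Peak centres along the bodies of the 21 repair genes that hold at least 1, as % of gene length from the gene start (x axis), with length in kb beside each name and point area proportional to score. Filled points name the gene and open points, 51 of 111, name another gene; the open points lie from 63.6% of the length on at CHEK1, RAD50 and PRKDC but between 19.2 and 55.8% at RAD54B and RAD21.

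Of the 6 Fanconi anemia genes, FANCI and FANCC were named and FANCD2 had body peaks. FANCI, which is ubiquitinated together with FANCD2 at crosslinks, was named by 4 peaks between 12.1 and 17.6 kb from the TSS in introns 2 to 4 of 37. The strongest, chr15:89800710-89801924, was 1215 bp wide, had a score of 79.12 and lay 14.1 kb from the TSS. FANCD2 itself had 2 body peaks, both named for FANCD2OS, with scores of 44.36 and 34.11. FANCC, a subunit of the core complex that ubiquitinates that pair, was named by 2 peaks in intron 4 of 14, the stronger at chr9:97996111-97996486 with a score of 58.55. Another 3 FANCC peaks were named for MIR3074, a microRNA gene past the end of FANCC. FANCA, FANCL and FANCM, of the same pathway, had no peak.

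BLM, a RecQ helicase that takes apart recombination intermediates, was named by 6 intronic peaks with scores of 38.3 to 65.21. The gene body held 10 peak centres in all, and the 4 further peaks at the far end of the gene were named for FURIN. WRN, the other RecQ helicase listed, had no peak. Among the end joining genes, apart from PRKDC described above, only XRCC5 was named. XRCC5 is the large subunit of the Ku ring that holds broken ends. Its 2 named peaks had scores of 56.82 in exon 8 of 21 and 49.74 in intron 14 of 20. XRCC4 and its ligase LIG4, the break sensor PARP1 and the polymerase POLQ of the alternative end joining pathway had none. Of the mismatch repair genes MSH3, MSH6 and PMS2, none was named, and MSH3 alone had a body peak, with a score of 34.18. RAD21, a cohesin subunit that holds sister DNA together, had 3 body peaks, all named for RAD21-AS1, with a highest score of 73.43.

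Among the genes with a peak, the number of named peaks was like that of other genes, while the median of body peaks was higher. The 64 peaks gave a median of 2 per named repair gene, as for other named protein-coding genes, and a mean of 3.76 against 3.75. Counted in the gene body, the median was 4 against 2 and the mean 5.29 against 4.57. These body counts were not matched for length. Median length was 103.2 kb for the repair genes with a named peak and 27.1 kb for other protein-coding genes, with or without a peak. The part of length in the body counts was not tested. RAD54B and ATM together held 26 of the 64 (40.6%), and 4 genes, BARD1, BRCA2, CHEK1 and TP53BP1, had 1 peak each (23.5% against 42.6% of other named genes). The strongest peak per gene had a median score of 53.08, with an interval of 41.61 to 58.55, and the median of 44.86 for other genes lay inside it. With peaks of a score of at least 50 alone, the order turned, at 58.55 for the repair genes and 62.96 for other genes. Over single peaks the median score was 41.7 against 41.0. In the top 10% of scores were 3 of the 64 peaks (4.69%, Wilson 95% interval 1.61 to 12.9%), at RAD54B, FANCI and BLM, and the 10.4% of other genes lay inside that interval. Body peaks named for other genes added 1 each at CHEK1, RAD21 and BRCA1.

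Most peaks of the repair genes lay inside the genes and downstream of the TSS, and 4 of the 64, at RAD52 and RAD54B, lay outside the gene body. The median distance to the TSS was 39.0 kb (interval 23.6 to 45.0 kb), against 27.7 kb for other protein-coding genes and 27.8 kb for all other named genes, both inside that interval. With the stronger 50% of peaks it was 29.4 kb against 27.2 kb. Of the 64 peaks 62 were downstream of the TSS (96.9% against 80.1%), and the 2 upstream peaks were both named for RAD54B. For body peaks, whose distance is to the TSS of whichever gene the row names, the order turned, at 71.2% for the repair genes against 77.5%. None was in a promoter or within 1 kb of a TSS, which is near the background, since other genes had 33 and 51 of 15304 peaks there. Introns held 59 (92.2%, Wilson 95% interval 83.0 to 96.6%), close to the 89.3% of other genes; with stronger peaks alone, or body peaks, the share was below that of other genes. Exons held the other 5 (7.81%, 3.38 to 17.02%), at ATM, ATR, BRCA2, RAD54B and XRCC5, against 1.87% (1.67 to 2.10%) of peaks of other genes. A repeat was annotated at 28 of the 64 (43.75%), much as for other genes (42.8%).

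Few of the intronic peaks were in the first intron. It held 3 of the 59 intronic peaks of the repair genes (5.08%), at ATR, BARD1 and RAD52, against 34.4% for other genes. Repair genes have many introns, and 40 of the 59 (67.8%) lay in transcripts with more than 15, against 42.9% for other genes. Within such transcripts the first intron held 1 of the 40 (2.5%) and 27.3% of the intronic peaks of other genes. Counting all 111 peak centres in the bodies of the repair genes, the median position was at 63.0% of the gene length, against 44.7% for other protein-coding genes, and 67 (60.4% against 44.4%) lay in the later part past 50%. Of the 111, 51 (45.9%) were named for another gene, at 16 of the repair genes. Whether intron number or length goes with these positions was not tested.

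A wider list of 94 other repair genes gave 35 with a named peak (37.2%, Wilson 95% interval 28.1 to 47.3%), with 124 peaks, against 20.3% of all protein-coding genes. A body peak was present at 39 (41.5%, 32.1 to 51.6%), against 19.6%. Their median length was 40.6 kb, and averaged over their length deciles the share of all genes was 24.3% for named and 24.5% for body peaks. Counts by pathway are small and can be read against the same 20.3%. Among those named, the median strongest score was 44.55. In homologous recombination and end sensing 7 of 16 genes were named, led by NBN, the remaining subunit of the complex of MRE11A and RAD50. NBN had 8 named peaks and 18 in its body, and the strongest, chr8:90968907-90976002 in intron 8 of 15, was 7096 bp wide with a score of 523.18. The median width in the list was 400 bp, and this NBN peak is among those dropped by the alternative without peaks wider than 5 kb. In nucleotide excision repair 6 of 12 were named, led by RAD23B, which helps to detect damage, with 23 peaks up to 171.87. In base excision and strand break repair 5 of 16 were named, led by the ligase LIG3 with 156.35. Damage tolerance had 5 of 11, led by RAD18 with 57.46, and the cohesin and SMC genes 4 of 6, led by SMC5 with 65.8. The checkpoint genes had 4 of 11, led by TIMELESS with 50.82, and the other Fanconi genes 1 of 10, WDR48 with 51.9. Within 2.5 Mb and outside their bodies, RAD23B and LIG3 had 31.6 and 32.2 peaks per Mb, WDR48 22.2, RAD18 10.2 and TIMELESS 6.4. SMC5 had 2.8 and NBN 2.4, and the median over all protein-coding genes was 4.8. The part of local peak density in these values was not tested. None of 5 other end joining genes and none of 3 other helicases was named. XRCC5 was thus the only named gene among those filed under end joining in both lists. Each gene was filed under 1 pathway only, PRKDC with the damage kinases and LIG3 with base excision and strand break repair. Of the 5 other end joining genes, NHEJ1 and DCLRE1C had 1 body peak each, with scores of 51.23 and 35.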

How the data were processed

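ChIP-seq libraries of VCaP cells were made by the authors with the anti-mERG antibody (1 library) and as a control (1 library). Per the submitters' processing notes Bowtie2, Picard and HOMER were used; per the file headers the peaks came from MACS on hg19 and were annotated with HOMER. The MACS version and threshold are not given in the sources used here. The deposited score is a value the authors gave to every peak, and its scale is not given in the sources used here. Distances to the TSS are as deposited, positive downstream.

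Genes named in the list were matched to GENCODE release 44 on GRCh37 through Entrez identifiers, symbols and Ensembl identifiers (4852 of 5011), and the 20136 protein-coding genes were the background. A body peak had its centre within the annotated gene. Sequences came from the GRCh37 genome, and 33 peaks on sequences outside it had no place in the gene bodies. Shares have Wilson 95% intervals, medians have order-statistic intervals, and no test was made. Alternatives were the stronger 50% of peaks, a score of at least 50, body peaks, the list after dropping the highest 1% of scores and any peak wider than 5 kb, peaks within 10 kb of the TSS, all annotated genes as background, members outside chromosomes 8 and 17, the median peak of a gene, leaving out the gene with the most peaks, and whole peaks in place of windows. Exact symbols alone and genes over 100 kb alone were added after seeing the data. The members and lists were chosen with earlier results of these data known. Each gene with a peak is named; the 5 with the highest score and the 5 with the most peaks are given with the position of their strongest peak where it is reported, and of the other repair genes the highest in each pathway and NBN. Sequences are from the strongest peaks of 5 of the 7 repair genes with the highest scores, with none from chromosome 8. Some items that fall under these rules, positions and sequences among them, are not reported, so the rules are not met in full. Other genes were named after their values were seen. Work was done in Python 3.11.15 with pysam 0.24.0, pandas 2.3.3, NumPy 2.4.6, SciPy 1.17.1 and Matplotlib 3.10.9, and the scripts were tested on simulated data.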

Additional observations from a re-analysis of the deposited data

How the results depend on the processing

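Of the values recomputed under the alternatives, 32 stayed within the interval or range of the reported value and 7 moved outside it. The repair genes kept a higher share with a peak than other genes in each alternative run, but other comparisons turned. The median strongest score was above that of other genes (53.08 against 44.86) but below it with a score of at least 50 (58.55 against 62.96). The intron share was above that of other genes (92.2% against 89.3%) but below it with the stronger 50% of peaks (85.7% against 91.7%), a score of at least 50 (83.3% against 93.5%) and body peaks (90.1% against 92.8%). The share downstream of the TSS turned with body peaks (71.2% against 77.5%), and the cause was not tested. With a score of at least 50, which leaves fewer peaks, the share of repair genes with a peak fell to 25% and the median number of peaks per gene to 1. Within 10 kb of the TSS, which also leaves fewer peaks, the share was 11.1%, the difference from other genes was 2.22 percentage points in place of 26.9, and the median number of peaks was 1. Among genes over 100 kb, an alternative chosen after seeing the data, the share was 64.3% against 36.4% of other genes, and the cause was not tested. Over whole peaks in place of windows, which are longer stretches, 96.9% of the peaks held GGAA. Exact symbols alone, also chosen after seeing the data, left out MRE11A and gave 16 of 36 (44.4%). No paired analysis was possible because each group had 1 library. The depth is unknown, so a gene without a peak is not shown to be unbound, and a peak counts for the gene of the nearest TSS, which left 51 of 111 body peaks with another gene.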
